A study of Mus musculus with 96 samples.

Results

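Liver libraries were compared by the size of their acute phase response, read from Saa1 and Saa2, which encode serum amyloid A. The high side was the 5 liver libraries with the highest summed level of Saa1 and Saa2, and the low side was the 5 with the lowest. These 10 libraries were taken from 15 liver libraries, in a series of 96 libraries from 7 mouse tissues. Levels are given as CPM, the estimated count of a gene per 1000000 counts of its library. The members were thus chosen by measured values, the CPM of Saa1 and Saa2 in these same libraries. Saa1, Saa2 and the other members of a list of acute phase genes are therefore described, and no test of them is reported. They stayed in the fit, so the counts over all genes given below include them.

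The series profiled RNA from tissues of 2 month-old mice by sequencing, to compare mouse strains built for switching on reprogramming factors in the living animal. Its liver samples are labelled as WT controls and as the strains 4Fj, 4FsB, 4Fk and 4FsA, with 3 samples for each of the 5 genotypes. The labels used here do not describe each strain's construct, an inducing agent or the sex of the animals, and do not say that samples came from separate animals. The expression table names each liver library by a running number and no genotype, so every library below is called by that number and none was assigned to WT or to a strain. A p-value here therefore measures association with the Saa split among these libraries, against a spread that may be technical in part, and it measures no effect of a genotype.

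The acute phase response is the switch in hepatocyte secretion that follows infection, injury or inflammation. Interleukin-6 and related cytokines act through STAT3 and the C/EBP factors, interleukin-1 acts through NF-kB, and together they raise the transcription of secreted proteins such as serum amyloid A, haptoglobin, the orosomucoids and fibrinogen. Plasma proteins whose output falls in the same response, such as transthyretin, are called negative acute phase proteins.

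Promoters of Saa1, Saa2, Lcn2 and Fgb are shown because these genes define the split, serve as its marker, or carry both an interleukin-6 type and a C/EBP type motif. The lines below give the 250 bases before each start site, 5′ to 3′ along the gene, from RefSeq on build GRCm38.p6. Capitals mark matches to TTCNNNGAA (STAT) or TTGCNNAA (C/EBP), searched on both strands, and no printed match overlaps another.
Saa1, chr7:46742981-46743230, minus strand: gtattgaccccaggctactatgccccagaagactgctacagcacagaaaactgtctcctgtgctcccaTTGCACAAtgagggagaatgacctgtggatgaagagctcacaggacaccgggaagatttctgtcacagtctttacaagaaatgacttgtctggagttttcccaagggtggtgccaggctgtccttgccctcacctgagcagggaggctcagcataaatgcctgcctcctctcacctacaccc
Saa2, chr7:46751583-46751832, plus strand: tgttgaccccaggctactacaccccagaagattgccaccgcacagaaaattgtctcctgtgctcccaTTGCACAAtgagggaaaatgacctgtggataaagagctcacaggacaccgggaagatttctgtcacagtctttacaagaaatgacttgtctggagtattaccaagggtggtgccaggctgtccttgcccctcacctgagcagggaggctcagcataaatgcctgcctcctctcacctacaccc
Lcn2, chr2:32387740-32387989, minus strand: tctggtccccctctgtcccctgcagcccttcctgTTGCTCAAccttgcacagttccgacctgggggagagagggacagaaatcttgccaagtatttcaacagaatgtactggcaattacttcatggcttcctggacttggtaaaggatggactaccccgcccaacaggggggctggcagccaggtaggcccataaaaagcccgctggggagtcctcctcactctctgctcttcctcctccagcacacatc
Fgb, chr3:83049864-83050113, minus strand: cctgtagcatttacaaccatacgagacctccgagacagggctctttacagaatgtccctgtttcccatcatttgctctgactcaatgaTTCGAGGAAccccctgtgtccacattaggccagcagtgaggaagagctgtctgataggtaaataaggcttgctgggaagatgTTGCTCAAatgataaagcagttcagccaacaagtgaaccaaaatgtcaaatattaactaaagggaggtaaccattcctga

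Saa1 and Saa2 each held 1 C/EBP match, TTGCACAA, which began 182 bases before the start site in Saa1 and 183 bases before it in Saa2. Lcn2 held TTGCTCAA, which began 216 bases before its start site. Fgb, the fibrinogen beta chain, held the STAT match TTCGAGGAA from base 162 and the C/EBP match TTGCTCAA from base 80 before its start site. Over windows of 300 bases, from 250 before to 50 after the start site, the STAT letters occurred in 30.8% of 26 windows of acute phase genes and in 8.3% of all 32851 windows. The C/EBP letters occurred in 46.2% and 10.8%. Those 26 windows cover 23 of the 31 genes in the acute phase list, and some genes have several windows. A match describes the letters in the window and is no evidence that a factor binds there. The reference transcripts Saa1-201 and Saa2-201 were identical at 572 of 606 aligned bases (94.4%), so reads of one may have been counted to the other, and their sum is used below.

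Saa1 and Saa2 together differed widely across the livers. From high to low, the high side was libraries 12, 8, 10, 11 and 7, with 34861, 23233, 17977, 17398 and 11161 CPM. The libraries between the sides were 9, 6, 5, 2 and 13, with 2593, 1278, 925, 536 and 259 CPM. The low side was libraries 14, 15, 4, 3 and 1, with 179.7, 139, 64.6, 43.7 and 39.7 CPM. Values below follow these orders within each side. The last library of the high side stood 4.3-fold above the next one, whereas the last library between the sides stood only 1.44-fold above the first of the low side, so the upper boundary is a gap and the lower one is not. In library 12 the 2 genes took up 3.49% of all counts. Lcn2, which encodes the iron-siderophore binding protein lipocalin-2 and serves as the marker of the split, was at 3489.5, 623, 1236, 1354 and 656 CPM on the high side and 6.7, 5.32, 4.13, 6.7 and 16 CPM on the low side. The sides did not overlap for Lcn2, and every library between them lay at or above 16.6 CPM and below the high side.

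**Figure D1:**
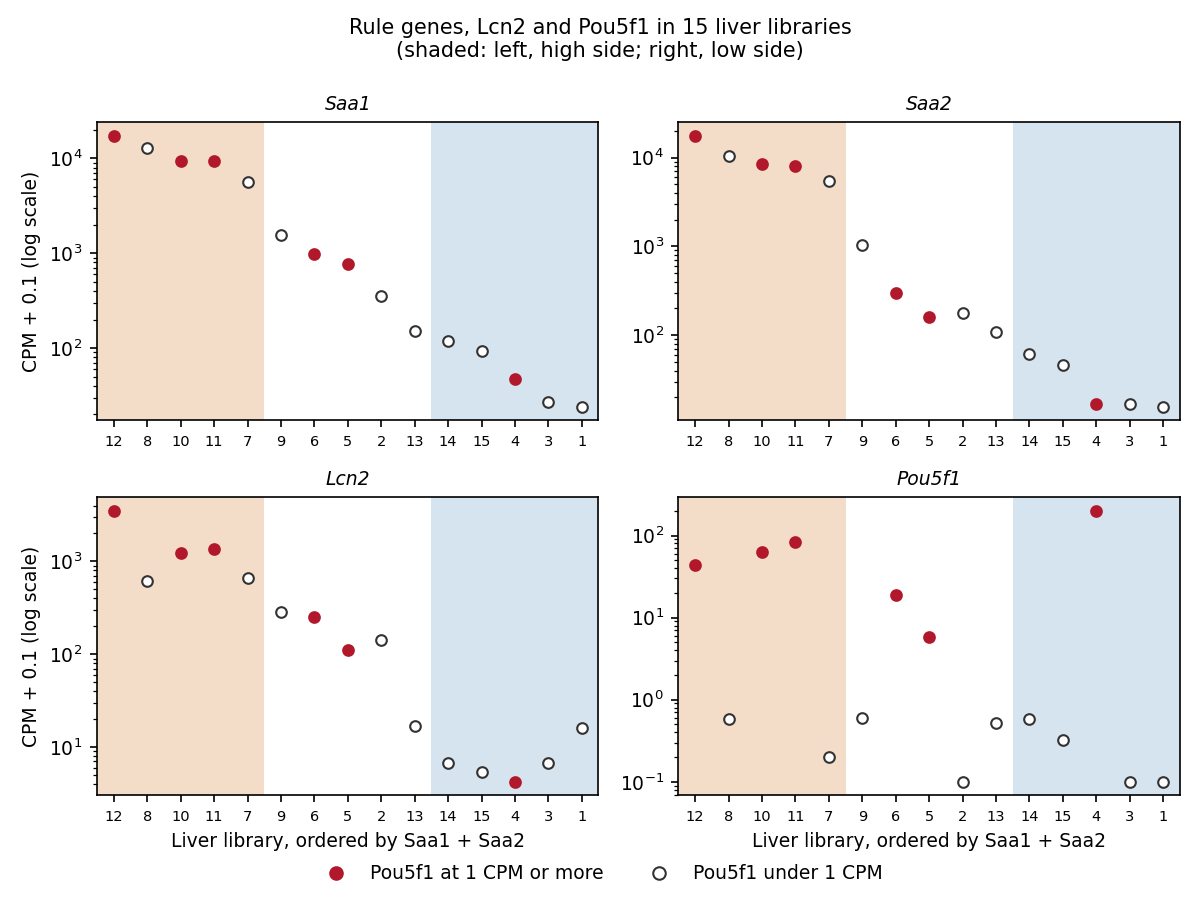
Levels of Saa1, Saa2, Lcn2 and Pou5f1 in the 15 liver libraries, as CPM plus 0.1 on a log scale, ordered along the x axis by summed Saa1 and Saa2. Each point is 1 library, filled where Pou5f1 is at 1 CPM or more, with the high side shaded on the left and the low side on the right; Lcn2 falls with Saa1 and Saa2, and filled points occur on both sides (3 of 5 and 1 of 5).

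The split coincided with Pou5f1 only in part. Pou5f1, which encodes the reprogramming factor Oct4, was at 43.6, 0.483, 63.4, 83.4 and 0.101 CPM on the high side and 0.487, 0.222, 199, 0 and 0 CPM on the low side. The libraries between the sides held 0.494, 18.7, 5.71, 0 and 0.418 CPM. At 1 CPM or more it was found in 3 of 5 high libraries, 2 of 5 libraries between the sides and 1 of 5 low libraries. The highest Pou5f1 level of all livers was in library 4, on the low side, and libraries 8 and 7 had high Saa1 and Saa2 with Pou5f1 under 1 CPM. Too few libraries carried Pou5f1 or Sox2 to pass the filter on low counts, so neither was tested.

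The other reprogramming factors were high in the same libraries as Pou5f1. Sox2, a partner of Oct4 in pluripotent cells, was at 139.8, 0, 233, 320.3 and 0 CPM on the high side and 0.609, 0.111, 201, 0 and 0 CPM on the low side. Klf4 was at 94.4, 1.74, 131, 175 and 0.505 CPM on the high side and 2.19, 2.44, 341, 3.93 and 6.53 CPM on the low side (log2 fold change 0.11, SE 1.53, adjusted p = 0.972, edgeR quasi-likelihood test). Myc, which promotes growth and ribosome production, was at 336, 3.47, 709, 866 and 2.42 CPM on the high side and 9.74, 21.8, 424, 21.3 and 12 CPM on the low side (log2 fold change 1.87, SE 1.42, adjusted p = 0.393, edgeR). For these 3 genes libraries 12, 10, 11 and 4 were high and the other 6 were low. The high side thus joins 3 libraries with the factors and 2 without, and the low side joins 1 with and 4 without.

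Depth and other properties also differed among the livers. Totals ran from 8211684 to 14176807 counts. The mitochondrially encoded share was 3.75% to 9.36% on the high side and 4.85% to 22.4% on the low side, with medians of 5.04% and 18.2%. With the mitochondrially encoded genes left out of the fit described next, 684 genes were higher and 717 lower. Library 1, on the low side, held no Y-linked counts and had 408 CPM of Xist, whereas the other 14 libraries held Y-linked counts. Alb, the plasma albumin gene and a defining hepatocyte transcript, was abundant on both sides, at 60260, 66496, 55931, 62948 and 64820 CPM on the high side and 36194, 45633, 47347, 71436 and 97497 CPM on the low side. In bulk tissue, fewer cells of a type and less RNA per cell cannot be told apart.

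Among all 12828 genes that passed the filter on low counts, 753 (5.87%) were higher and 693 (5.4%) were lower on the high side at an adjusted p under 0.05 (edgeR quasi-likelihood test with Benjamini-Hochberg adjustment, TMM scaling). Scaled by library totals in place of TMM, the split was 242 higher (1.89%) and 1008 lower (7.86%), and the median log2 fold change of all genes moved from 0.04 to -0.15. In CPM, the sides did not overlap for 202 genes higher (1.57%) and 1215 genes lower (9.47%). No acute phase gene that passed the filter was left out of these counts, Saa1 and Saa2 included. The 753 higher genes hold 23 members of the acute phase list. The counts moved with single libraries: without library 14 they were 189 and 311, without 15 they were 211 and 315, without 11 they were 334 and 298, and without 10 they were 374 and 348. Without library 3 they were 413 and 554, without 12 they were 479 and 422, without 1 they were 489 and 597, and without 7 they were 1151 and 1152. Of 94 genes picked by the naming rule and past the threshold, 43 stayed past it in each of the 10 fits that left out 1 library. Saa1 and Saa2 are not among the 94, but Lcn2 and other acute phase genes are. Where a tested gene below lost its call, or gained one, in such a fit, at totals scaling, by DESeq2, or with a term for Pou5f1 or for Y-linked counts in the fit, its parenthesis gives that adjusted p, the highest where several libraries are named.

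Acute phase genes were higher as a body, on a list that includes the split genes Saa1 and Saa2. Of the list of 31, 30 passed the filter on low counts and 29 of those had a positive difference. Over all 12828 genes, 6662 did. The median log2 difference, with Saa1 and Saa2 counted in, was 2.67 against 0.04 over all genes. The sides did not overlap for 18 members, all higher on the high side, including Saa1 and Saa2. Over all genes 1.57% did not overlap and were higher, and 9.47% did not overlap and were lower. These genes are known to be switched on together with Saa1 and Saa2, which chose the sides, so the counts describe the split and no p is given for them. On the mean log2(CPM + 1) scale the list without Saa1 and Saa2 stood at 9 to 9.7 in the high libraries and 6.58 to 7.42 in the low ones. Ranking the livers by that level in place of Saa1 and Saa2 put the same 5 libraries on the high side and 3 of the same 5 on the low side.

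Scavengers of haem and haemoglobin were among the most abundant of these transcripts. Hp, which encodes haptoglobin, was at 35748, 23449, 23224, 23653 and 21436 CPM on the high side and 4107, 3183, 2904, 1421 and 2272 CPM on the low side, a log2 difference of 3.45. Hpx, which encodes the haem carrier hemopexin, was at 22500, 19378, 14255, 14904 and 18994 CPM on the high side and 4109, 3391, 1845, 3090 and 5236 CPM on the low side, a log2 difference of 2.68. For both genes all 5 high libraries lay above all 5 low ones, and library 9, the first below the boundary, lay between the sides with 13391 CPM of Hp and 10147 CPM of Hpx.

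The orosomucoids and pentraxins split within the high side. Orm1, which encodes the plasma glycoprotein orosomucoid 1, was at 5942, 5756, 3343, 3548 and 5627 CPM on the high side and 815, 726, 594, 527 and 265 CPM on the low side. Its paralog Orm2 was at 267, 561, 173, 178 and 1425 CPM on the high side and 20.1, 11.4, 3.69, 13.5 and 7.82 CPM on the low side, a log2 difference of 6.08. Orm2 was highest in libraries 7 and 8, those without Pou5f1. Apcs, which encodes serum amyloid P, was at 337, 1376, 168, 177 and 908 CPM on the high side and 63.9, 77.5, 58.5, 86.2 and 96 CPM on the low side and was likewise highest in libraries 8 and 7. Crp, which encodes C-reactive protein, was at 76.2, 397, 16.5, 23 and 247 CPM on the high side and 184, 176, 86.5, 311 and 281 CPM on the low side, and its sides overlapped.

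Serpina3n, a serine protease inhibitor, showed the opposite arrangement. It was at 22524, 1912, 21105, 24286 and 746 CPM on the high side and 201, 146, 131, 316 and 376 CPM on the low side, a log2 difference of 5.88. Libraries 12, 10 and 11, those with Pou5f1, stood far above libraries 8 and 7, which in turn stood above the low side. Il1rn, the interleukin-1 receptor antagonist, was at 197, 4.34, 85.5, 94.4 and 2.32 CPM on the high side and 2.92, 3.21, 0.708, 1.25 and 3.98 CPM on the low side. Cd14, the lipopolysaccharide co-receptor, was at 128, 7.82, 108, 122 and 6.67 CPM on the high side and 2.31, 2.77, 2.71, 3.21 and 8.56 CPM on the low side. For both genes the elevation lay in the same 3 libraries, and library 7 fell within the range of the low side, as did library 8 for Cd14. Il1rn, Cd14 and Crp were chosen after their values were seen. So were Fga, Fgb, Fgg, Hamp, Serpina6, Il6, Socs3, Stat3, Mlxipl, Srebf1, Pnpla3, Plin2, Cyp7a1 and Hspa5.

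Fibrinogen chains differed less. Fgb was at 13901, 7762, 8233, 10166 and 7703 CPM on the high side and 3259, 3352, 2253, 3860.5 and 4206 CPM on the low side, a log2 difference of 1.74, and Fga and Fgg, the alpha and gamma chains, had log2 differences of 1.71 and 1.89. Fgl1, which encodes the hepatocyte protein hepassocin, was at 1534, 2535, 1308, 1384 and 2946 CPM on the high side and 289, 215, 169, 225 and 296 CPM on the low side. Lrg1, a leucine-rich glycoprotein, was at 4947, 2860.5, 2456, 3101 and 2653 CPM on the high side and 560.3, 337, 375, 256 and 297 CPM on the low side. The sides did not overlap for Fgb, Fgg, Fgl1 or Lrg1, whereas for Fga library 7 lay within the low range. Hamp, which encodes the iron hormone hepcidin, overlapped: it was at 496, 709, 154, 238 and 4271 CPM on the high side and 847, 629.6, 404, 819 and 1088 CPM on the low side, with the highest value in library 7.

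**Figure D2:**
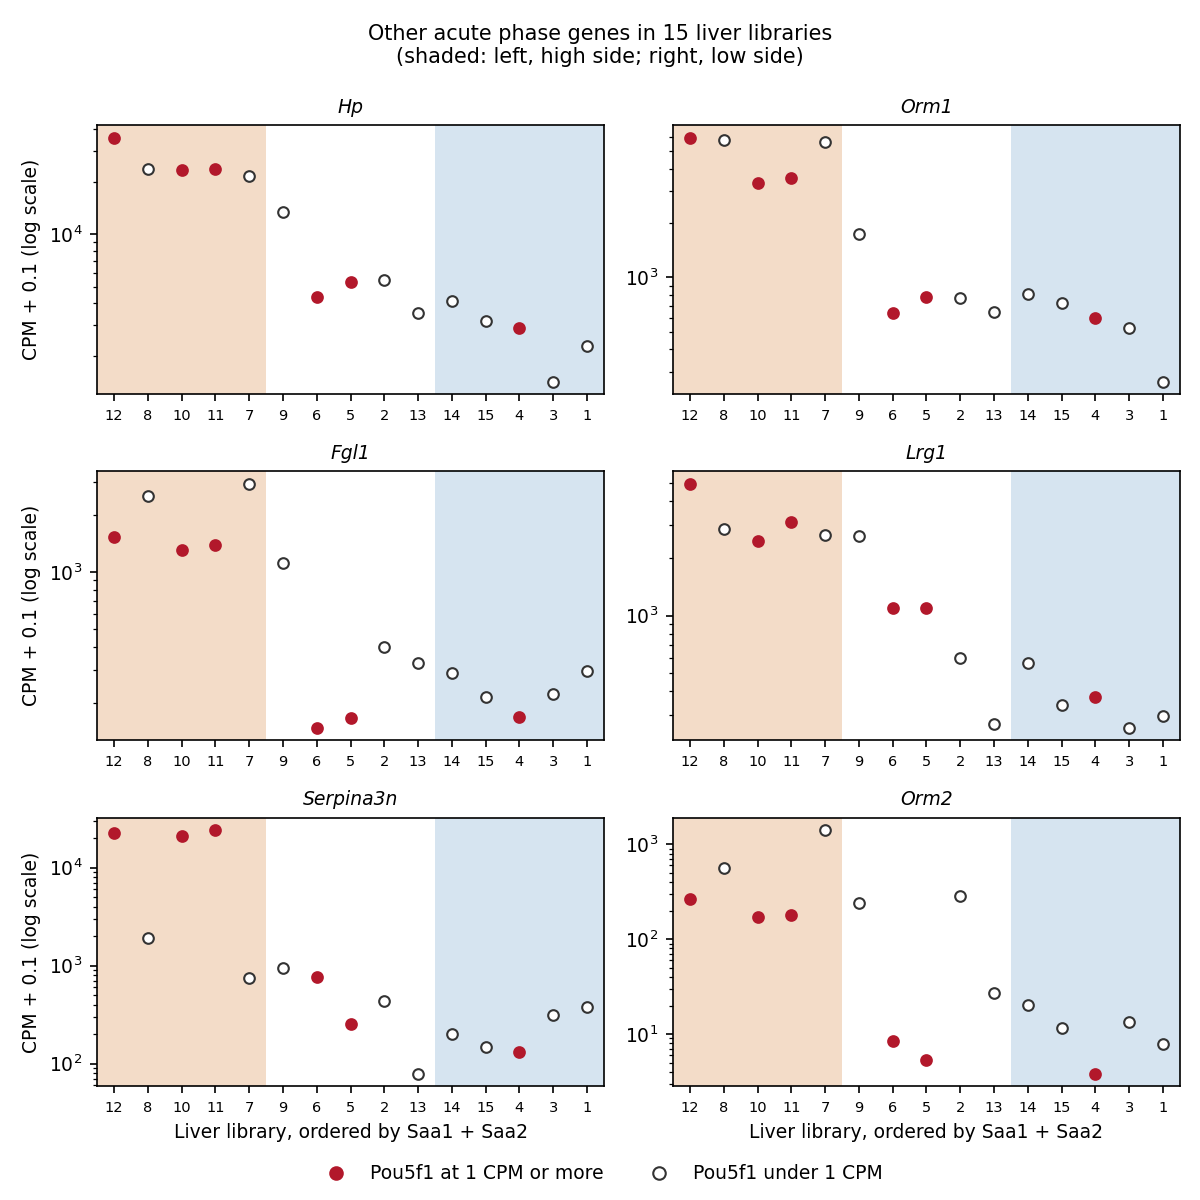
Levels of 6 acute phase genes in the 15 liver libraries, as CPM plus 0.1 on a log scale, ordered by summed Saa1 and Saa2, with the high side shaded on the left, the low side on the right and filled points for Pou5f1 at 1 CPM or more. For Hp, Orm1, Fgl1 and Lrg1 all 5 high libraries lie above all 5 low ones, while Serpina3n is highest in the 3 filled high libraries and Orm2 in the 2 open ones.

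Negative acute phase proteins showed no call with all 10 libraries. Of 16 members tested, 0 were called in either direction by edgeR, against 11.3% of all genes, and the median log2 fold change was 0.46 (0.06 at totals scaling). At an unadjusted p under 0.05 there were 3 higher and 0 lower, and DESeq2 called 2 higher and 0 lower. Over all 16565 genes that DESeq2 tested, it called 1602 higher and 1466 lower. For unadjusted counts, here and below, no share over all genes is given, so they are not set against a background. Ttr, which encodes transthyretin, was at 2354, 4793, 1754, 1960.3 and 6339 CPM on the high side and 4928, 6577, 4705, 5127 and 5283 CPM on the low side (log2 fold change -0.14, SE 0.56, adjusted p = 0.888, edgeR). Its 3 lowest values on the high side were those of libraries 12, 10 and 11. Serpina6, which encodes the corticosteroid carrier of plasma, was at 1.68, 6.95, 0.846, 0.898 and 129 CPM on the high side and 192, 156, 181, 191 and 283 CPM on the low side (log2 fold change -2.09, SE 1.32, adjusted p = 0.307, 0.00479 without library 7, edgeR). It was under 10 CPM in libraries 12, 8, 10 and 11 and over 100 CPM in library 7 and all low libraries.

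Cytokine signalling genes were mostly uncalled. Of 24 tested members of the interleukin-6 and STAT3 list, 2 were higher and 1 was lower, and of 24 members of the interleukin-1, TNF and NF-kB list, 2 were higher. At library totals the second list had 0 higher and 0 lower. Over all genes 5.87% were higher and 5.4% lower. Cebpd, a C/EBP factor induced early in the acute phase, was at 116, 27.6, 152, 158 and 21.9 CPM on the high side and 9.44, 10.7, 17, 12 and 24.6 CPM on the low side (log2 fold change 2.72, SE 0.44, adjusted p = 0.00786, edgeR). Osmr, the receptor subunit for oncostatin M, was at 26, 5.69, 34.6, 31 and 4.34 CPM on the high side and 3.78, 4.77, 4.13, 3.39 and 5.59 CPM on the low side (log2 fold change 2.24, SE 0.42, adjusted p = 0.0117, edgeR). Both were highest in libraries 12, 10 and 11, and Osmr was near the low side in libraries 8 and 7. For Cebpd, library 8 lay above the low range and library 7 within it. Among libraries with Pou5f1 under 1 CPM, Cebpd was still higher on the high side (log2 fold change 1.53, adjusted p = 0.0308, edgeR). Osmr was not called there (log2 fold change 0.91, adjusted p = 0.146, edgeR). Cebpd is induced in the same response as Saa1 and Saa2, so its p-value is no independent support for the split. Socs3, the feedback inhibitor of STAT3, was at 169, 24.9, 137, 134 and 10.3 CPM on the high side and 35.3, 61.4, 7.32, 12 and 8.9 CPM on the low side (log2 fold change 1.91, SE 0.73, adjusted p = 0.103, 0.0353 by DESeq2, edgeR). Its sides overlapped. Stat3 itself was at 253, 79.2, 202, 222 and 94.4 CPM on the high side and 96.8, 96.1, 69, 141 and 161 CPM on the low side (log2 fold change 0.73, SE 0.31, adjusted p = 0.133, edgeR). Tyk2, a Janus kinase, was the lower member, at 13.7, 8.49, 16.7, 15.5 and 6.26 CPM on the high side and 30.9, 29.3, 29.4, 23.3 and 30.1 CPM on the low side (log2 fold change -1.09, SE 0.20, adjusted p = 0.0114, edgeR). Its sides did not overlap. Il6, the ligand, was at or below 1.48 CPM in all 10 libraries and was not tested.

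Metallothioneins rose with the split. Mt1 and Mt2 encode small zinc and copper binding proteins that inflammation and metals are known to induce. Because inflammation also induces the split genes, their p-values measure association with the split and are no independent support for it. Mt1 was at 4895, 1377, 3842, 4871 and 2829 CPM on the high side and 35.3, 19.8, 204, 100.2 and 181 CPM on the low side (log2 fold change 5.24, SE 0.69, adjusted p = 0.00634, edgeR). Mt2 was at 3167, 598, 2807, 3316 and 753 CPM on the high side and 10.8, 6.65, 166, 49.6 and 82 CPM on the low side (log2 fold change 5.16, SE 0.88, adjusted p = 0.00944, edgeR). The sides did not overlap for either gene, and libraries 6 and 5 between the sides, which carried Pou5f1, had 1226 and 1284 CPM of Mt1, near the lowest high library. On the low side the highest Mt2 value was in library 4, the 1 low library with Pou5f1. With the sides set by the other acute phase genes, neither gene was called. The log2 fold changes were then 3.62 for Mt1 (adjusted p = 0.0525) and 3.38 for Mt2 (adjusted p = 0.0859) in edgeR. Of the 20 metal handling genes tested, 3 were higher and 2 were lower, where 5.87% of all genes were higher and 5.4% lower. The third higher one was Hmox1, the haem-degrading oxygenase (log2 fold change 1.17, SE 0.33, adjusted p = 0.0431, up to 0.0994 without 1 of libraries 12, 10, 11, 14, 15, 4, 3 and 1, 0.136 at totals scaling, 0.0739 with a Pou5f1 term, 0.0565 with a Y-linked term, edgeR).

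Fatty acid synthesis was the list with the largest share of lower genes among lists with 10 or more tested members. Of 24 tested members 13 were lower and 0 were higher, where 5.4% of all genes were lower, and the median log2 fold change was -2.29 (-2.63 at totals scaling, with 17 lower). The sides did not overlap for 13 members, all lower on the high side, where 9.47% of all genes did not overlap and were lower and 1.57% did not overlap and were higher. Scd1, the stearoyl-CoA desaturase, was at 121, 51.6, 55.5, 55.9 and 761 CPM on the high side and 2817, 9666, 3037, 44471 and 14437 CPM on the low side (log2 fold change -5.54, SE 1.30, adjusted p = 0.0221, up to 0.0524 without 1 of libraries 12 and 11, edgeR). The highest high library, 7, stood well below the lowest low one, 14. Fasn, the fatty acid synthase, was at 145, 53.1, 91.6, 82.7 and 156 CPM on the high side and 1174, 1291, 497, 4849 and 1428 CPM on the low side (log2 fold change -3.84, SE 0.68, adjusted p = 0.0104, edgeR). Acacb, the mitochondrial acetyl-CoA carboxylase that makes malonyl-CoA, was at 10.1, 9.84, 7.12, 8.8 and 10.4 CPM on the high side and 57.4, 133, 47.2, 616 and 188 CPM on the low side (log2 fold change -4.19, SE 0.74, adjusted p = 0.0102, edgeR). Its 5 high libraries lay within a narrow range. Elovl5, an elongase of polyunsaturated fatty acids, was at 62.1, 91.9, 77.3, 72.6 and 103 CPM on the high side and 301, 619, 171, 1518 and 924 CPM on the low side (log2 fold change -2.77, SE 0.60, adjusted p = 0.0171, edgeR).

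Transcription factors known to drive this pathway were lower too. Mlxipl, which encodes the carbohydrate-responsive factor ChREBP, was at 97.7, 24.7, 48.8, 69.1 and 44.9 CPM on the high side and 826, 785, 724, 277 and 129 CPM on the low side (log2 fold change -3.10, SE 0.56, adjusted p = 0.011, edgeR). Srebf1, which encodes the insulin-responsive factor SREBP-1, was at 49.6, 23.8, 62.5, 52.2 and 81.6 CPM on the high side and 315, 243, 108, 396 and 333 CPM on the low side (log2 fold change -2.09, SE 0.46, adjusted p = 0.0177, up to 0.051 without 1 of libraries 11 and 14, edgeR). Neither gene's sides overlapped. Pklr, the liver pyruvate kinase and a classical ChREBP target, was at 53.7, 21.2, 14, 9.52 and 83.6 CPM on the high side and 465, 511, 277, 762 and 244 CPM on the low side (log2 fold change -3.18, SE 0.75, adjusted p = 0.0228, up to 0.0567 without 1 of libraries 14 and 15, edgeR). Pnpla3, a lipid droplet protein, was at 0.177, 0, 0, 0.0898 and 0 CPM on the high side and 1.7, 6.65, 2.6, 18.7 and 13 CPM on the low side (adjusted p = 0.00634, edgeR), so close to 0 on the high side that no fold is given. Plin2, the droplet coat protein, was at 608, 426, 966, 1013 and 154 CPM on the high side and 207, 182, 124, 442 and 414 CPM on the low side (log2 fold change 1.28, SE 0.44, adjusted p = 0.0778, 0.0359 without library 7, 0.029 by DESeq2, edgeR). Libraries 6 and 5, between the sides and with Pou5f1, held 129 and 171 CPM of Fasn, within or just above the high range, although their Saa1 and Saa2 were far below it.

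**Figure D3:**
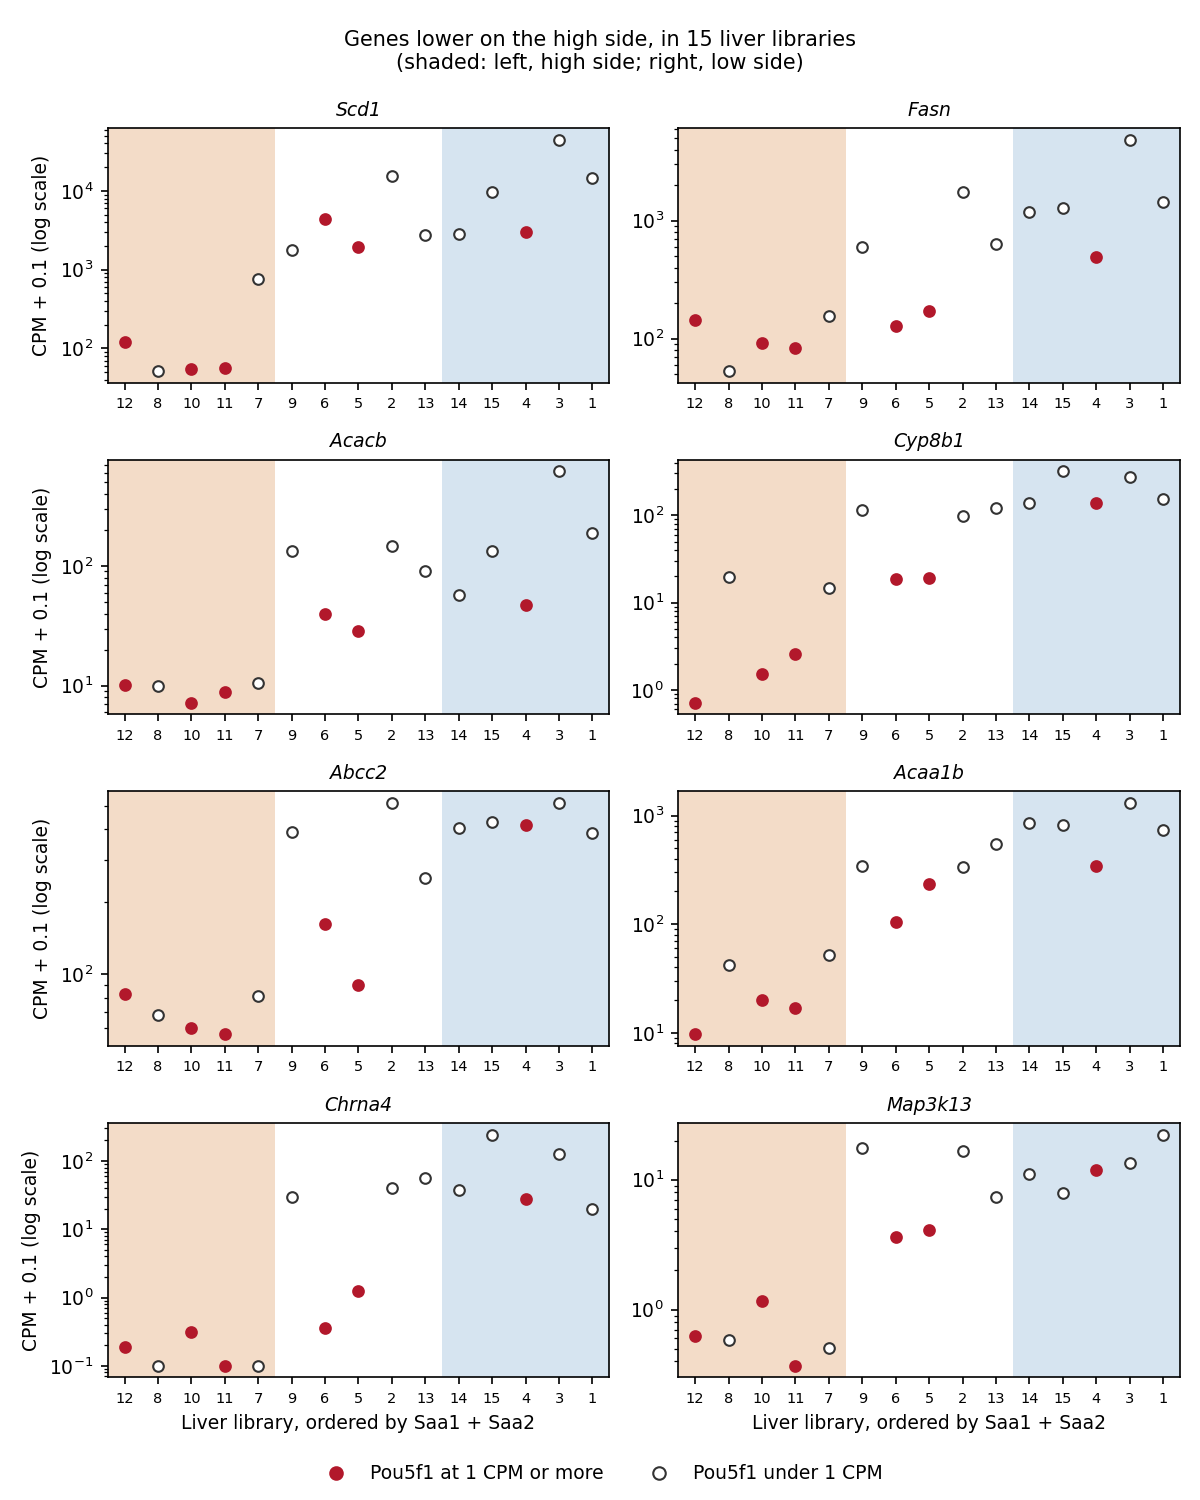
Levels of 8 genes lower on the high side, as CPM plus 0.1 on a log scale, in the 15 liver libraries ordered by summed Saa1 and Saa2, with the high side shaded on the left, the low side on the right and filled points for Pou5f1 at 1 CPM or more. No gene overlaps between the shaded sides, and in Fasn, Acacb, Cyp8b1, Abcc2, Acaa1b, Chrna4 and Map3k13 the filled points between the sides (libraries 6 and 5) are the 2 lowest of those 5.

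Bile acid genes were lower in part. Of 24 tested members 3 were lower and 0 higher, where 5.4% of all genes were lower and 5.87% higher. The median log2 fold change was -0.92 (-1.37 at totals scaling, with 11 lower, where 7.86% of all genes were lower). Cyp8b1, the sterol 12-alpha-hydroxylase that sets the proportion of cholic acid, was at 0.618, 19.7, 1.41, 2.51 and 14.8 CPM on the high side and 137, 316, 137, 276 and 153 CPM on the low side (log2 fold change -4.11, SE 1.00, adjusted p = 0.0259, up to 0.0615 without 1 of libraries 11, 14 and 15, edgeR). Abcc2, the canalicular exporter of conjugated organic anions, was at 82.6, 67.8, 59.8, 56.4 and 81.1 CPM on the high side and 406, 431, 418, 513 and 388 CPM on the low side (log2 fold change -2.31, SE 0.34, adjusted p = 0.00657, edgeR). Each side held a narrow range. The organic anion transporter gene Slco1a4 was at 2.83, 13.5, 2.54, 4.76 and 7.58 CPM on the high side and 18.4, 44.7, 27, 58.4 and 124 CPM on the low side (log2 fold change -2.62, SE 0.69, adjusted p = 0.0342, up to 0.0793 without 1 of libraries 12, 10, 11, 14, 15, 3 and 1, 0.0691 with a Y-linked term, edgeR). Cyp7a1, the rate-limiting enzyme of bile acid synthesis, was at 0, 12.6, 0.282, 0.269 and 11.3 CPM on the high side and 48.2, 75.5, 77.7, 155 and 149.9 CPM on the low side; its sides did not overlap, but it was not called (log2 fold change -3.69, SE 1.27, adjusted p = 0.0772, 0.0395 at totals scaling, 0.0452 by DESeq2, 0.0357 with a Pou5f1 term, edgeR). For both Cyp8b1 and Cyp7a1, libraries 12, 10 and 11 lay well below libraries 8 and 7.

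Hepatocyte transcription factors and cytochromes P450 gave few calls, all lower, where 5.4% of all genes were lower (7.86% at totals scaling). Of 20 tested factors 3 were lower, among them Foxa2 (log2 fold change -1.39, SE 0.29, adjusted p = 0.0168, edgeR) and Ppara (log2 fold change -2.64, SE 0.67, adjusted p = 0.0305, up to 0.0695 without 1 of libraries 12, 10, 11, 14, 3 and 1, 0.0561 with a Y-linked term, edgeR). Foxa2, a pioneer factor of liver genes, was at 15, 10.5, 15.7, 13.6 and 7.98 CPM on the high side and 52.2, 47.3, 20.4, 36.1 and 29.5 CPM on the low side. Ppara, the receptor that drives fatty acid oxidation, was at 1.85, 5.69, 2.61, 1.62 and 5.76 CPM on the high side and 12.4, 13.3, 17.2, 59 and 47.8 CPM on the low side. Totals scaling called 9 of the 20 lower. Of 29 cytochrome P450 genes 2 were lower, Cyp2c38 (log2 fold change -2.45, SE 0.40, adjusted p = 0.00815, edgeR) and Cyp4f14 (log2 fold change -1.17, SE 0.33, adjusted p = 0.0435, up to 0.104 without 1 of libraries 12, 8, 10, 11, 14, 15, 4, 3 and 1, 0.0596 with a Y-linked term, edgeR), and totals scaling called 7.

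Fuel metabolism otherwise showed single genes. Acaa1b, a peroxisomal thiolase, was at 9.6, 41.7, 19.8, 16.7 and 52.1 CPM on the high side and 848, 816, 341, 1305 and 741 CPM on the low side (log2 fold change -4.39, SE 0.70, adjusted p = 0.00768, edgeR). Only 1 further member of the 27 fatty acid oxidation genes, Ppara, was lower. G6pc, the glucose-releasing phosphatase of gluconeogenesis, was at 31.8, 86.2, 9.66, 17.1 and 53.2 CPM on the high side and 393, 116, 189.8, 724 and 397 CPM on the low side (log2 fold change -2.71, SE 0.77, adjusted p = 0.0448, up to 0.0938 without 1 of libraries 12, 10, 11, 14, 15, 4, 3 and 1, 0.0683 with a Y-linked term, edgeR). Uroc1, the urocanate hydratase of histidine breakdown, was at 126, 99.8, 68.5, 89.9 and 118 CPM on the high side and 446, 320.2, 403, 543 and 575 CPM on the low side (log2 fold change -1.85, SE 0.37, adjusted p = 0.0148, edgeR). Of 28 glutathione and antioxidant genes, 7 were lower and 3 higher (9 lower and 0 higher at totals scaling), where 5.4% of all genes were lower and 5.87% higher. Gstm1, a glutathione transferase, was at 245, 183, 223, 256 and 431 CPM on the high side and 955, 1425, 1170.1, 1647 and 1625 CPM on the low side (log2 fold change -1.99, SE 0.42, adjusted p = 0.0163, edgeR).

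Chaperones of the endoplasmic reticulum, which fold secreted proteins, held more higher calls than the background. Of 25 tested members 7 were higher and 0 lower, where 5.87% of all genes were higher, and the median log2 fold change was 1.07 (0.80 at totals scaling, with 3 higher). Calr, which encodes the lectin chaperone calreticulin, was at 1377, 1226, 1179.9, 1111 and 1144 CPM on the high side and 594, 497, 895, 549 and 706 CPM on the low side (log2 fold change 1.19, SE 0.33, adjusted p = 0.0398, up to 0.112 without 1 of libraries 12, 8, 11, 7, 14, 15, 3 and 1, 0.0726 with a Y-linked term, edgeR). Hsp90b1, which encodes the chaperone GRP94, was at 1012, 1482, 1134, 1077 and 767 CPM on the high side and 416, 436, 699, 511 and 701 CPM on the low side (log2 fold change 1.28, SE 0.34, adjusted p = 0.0354, up to 0.103 without 1 of libraries 12, 8, 11, 14, 15, 3 and 1, 0.0566 with a Y-linked term, edgeR). Their sides did not overlap. Hspa5, which encodes the central chaperone BiP, was not called (log2 fold change 1.29, SE 0.42, adjusted p = 0.0641, 0.0466 without library 7, 0.0143 by DESeq2, edgeR), and library 7, at 459 CPM, lay within the low range.

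Ribosome biogenesis and amino acid stress genes had higher calls, and for Npm1, Asns and Psat1 the highest values lay in libraries 12, 10 and 11. All 28 tested ribosome biogenesis genes had a positive log2 fold change, 6 were higher (1 at totals scaling) and the median was 1.07. Over all 12828 genes, 6662 had a positive log2 fold change, 5.87% were higher, 5.4% were lower and the median was 0.04. Npm1, the nucleolar protein nucleophosmin, was at 294, 91.8, 823, 730.2 and 115 CPM on the high side and 61.3, 105, 170.4, 75.7 and 102 CPM on the low side (log2 fold change 1.98, SE 0.48, adjusted p = 0.0246, up to 0.0711 without 1 of libraries 10, 11, 14, 15, 3 and 1, 0.056 at totals scaling, 0.0512 with a Y-linked term, edgeR). Libraries 12, 10 and 11 were high, libraries 8 and 7 were within the low range, and library 4 was the highest of the low side. Nop16, a ribosome biogenesis gene also picked by the naming rule, was higher (adjusted p = 0.0152, edgeR). It kept its call in each fit without 1 library. Among libraries with Pou5f1 under 1 CPM its log2 fold change was 1.32 (adjusted p = 0.0209, edgeR), and among those at 1 CPM or more it was 1.24. Of 20 integrated stress response genes 3 were higher and 1 lower. Asns, the asparagine synthetase, was at 18.2, 1.35, 34.4, 35.6 and 2.63 CPM on the high side and 0.731, 1.55, 1.77, 0.268 and 0.848 CPM on the low side (log2 fold change 4.10, SE 0.77, adjusted p = 0.012, edgeR). Psat1, of serine synthesis, was at 75.7, 0.483, 179.7, 153 and 0.101 CPM on the high side and 1.58, 3.1, 0.826, 0.446 and 4.58 CPM on the low side (log2 fold change 5.17, SE 1.39, adjusted p = 0.0369, up to 0.0942 without 1 of libraries 12, 10, 11, 14, 15, 4, 3 and 1, 0.863 with a Pou5f1 term, 0.056 with a Y-linked term, edgeR). The highest values were again in libraries 12, 10 and 11.

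**Figure D4:**
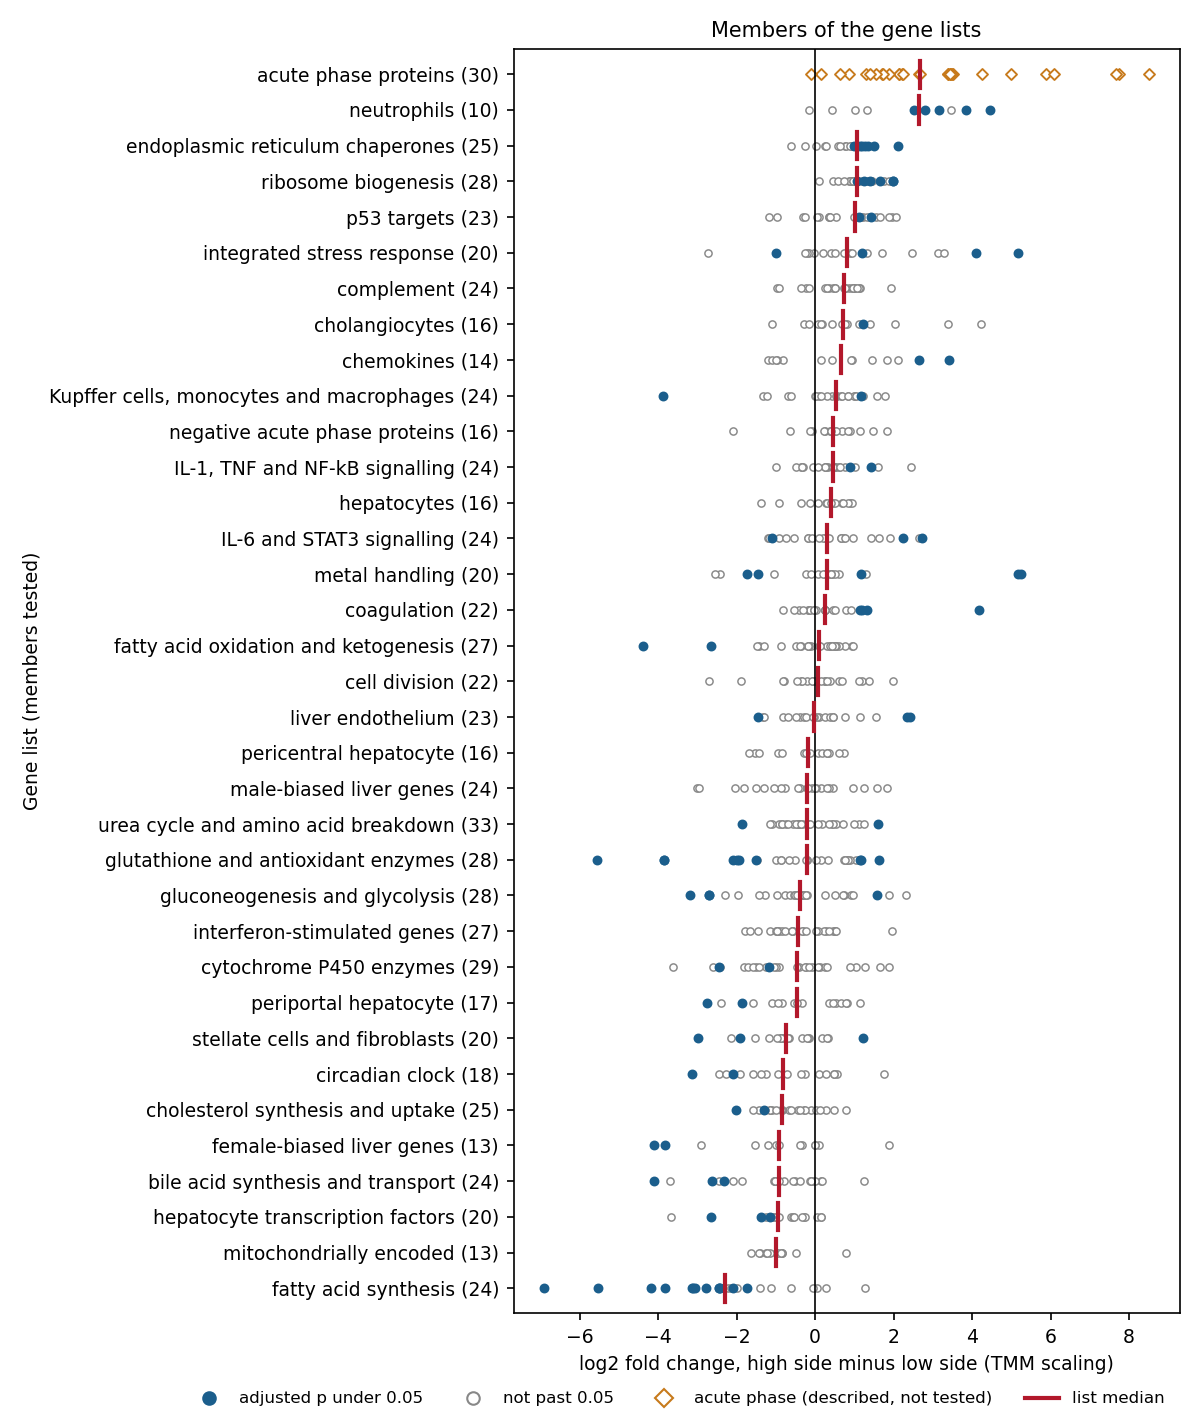
Log2 fold change (high side minus low side, TMM scaling) of each tested member of the gene lists with 10 or more tested members, 1 row per list, with filled circles for genes past the adjusted threshold of 0.05 and a red bar for the list median. Acute phase members, Saa1 and Saa2 included, are drawn as diamonds because they are described and no test of them is reported. They have the highest median (2.67), next to neutrophil markers (2.66), and fatty acid synthesis has the lowest (-2.29).

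Several neutrophil markers rose. Of 23 markers 10 were tested and 13 did not pass the filter on low counts. Of those tested 5 were higher (3 at totals scaling) and 0 lower, where 5.87% of all genes were higher and 5.4% lower. The summed level was 479 to 1122 CPM on the high side and 101 to 192 CPM on the low side. The largest part of that sum was Wfdc21, at 347, 1036, 269, 310.4 and 601 CPM on the high side and 113, 138, 130.5, 153 and 72.1 CPM on the low side (log2 fold change 2.53, SE 0.57, adjusted p = 0.0194, up to 0.0583 without 1 of libraries 14 and 15, edgeR). S100a9, a subunit of calprotectin, was at 43, 17.5, 199, 138 and 38.9 CPM on the high side and 3.04, 3.55, 0.59, 7.77 and 4.58 CPM on the low side (log2 fold change 4.45, SE 0.68, adjusted p = 0.00697, edgeR). Its partner S100a8 was at 13.8, 15.1, 23.4, 23 and 48.8 CPM on the high side and 1.58, 1.33, 0.354, 5 and 2.71 CPM on the low side (log2 fold change 3.85, SE 0.69, adjusted p = 0.0111, edgeR). The sides did not overlap for these 3 genes. Ly6g, the defining surface marker of mouse neutrophils, was at or below 0.222 CPM in all 10 libraries, and Fcnb was at 0 in all of them. Whether neutrophils themselves were more numerous was not tested, and neither was any part of them in the other results.

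Other resident and blood cells gave few calls, where 5.87% of all genes were higher and 5.4% lower. Of 24 tested macrophage markers 1 was higher, Hmox1 from above, and 1 was lower, the dendritic and myeloid integrin Itgax. Ccl6, a chemokine of myeloid cells, was at 39.8, 71.1, 39.3, 39.1 and 17.6 CPM on the high side and 3.29, 2.99, 2.95, 6.7 and 8.05 CPM on the low side (log2 fold change 3.40, SE 0.47, adjusted p = 0.00634, edgeR). It was 1 of 2 higher among 14 chemokines. Of 23 lymphocyte markers 5 were tested and 2 were lower, Ighm (log2 fold change -5.53, SE 1.45, adjusted p = 0.0337, up to 0.0771 without 1 of libraries 12, 8, 10, 11, 14, 15 and 1, 0.0833 with a Pou5f1 term, 0.0665 with a Y-linked term, edgeR) and Jchain (log2 fold change -4.51, SE 1.28, adjusted p = 0.044, up to 0.14 without 1 of libraries 12, 8, 10, 11, 14, 15, 3 and 1, 0.129 with a Pou5f1 term, 0.106 with a Y-linked term, edgeR). Ighm, the immunoglobulin mu chain, was at 0.971, 2.51, 2.96, 1.17 and 5.05 CPM on the high side and 11, 17.3, 3.78, 42.2 and 771 CPM on the low side. Stab2, a scavenger receptor of liver sinusoidal endothelium, was at 14.8, 7.05, 13.8, 11.9 and 8.29 CPM on the high side and 33, 45.2, 45.6, 32.6 and 16.9 CPM on the low side (log2 fold change -1.45, SE 0.30, adjusted p = 0.0152, edgeR). Lyve1, another marker of those cells, was higher although the sides overlapped, at 49.3, 6.47, 69.7, 57.7 and 6.87 CPM on the high side and 2.31, 4.21, 3.07, 5.36 and 21.1 CPM on the low side (log2 fold change 2.42, SE 0.68, adjusted p = 0.0421, up to 0.113 without 1 of libraries 12, 10, 11, 14, 15, 4 and 3, 0.0765 at totals scaling, 0.21 with a Pou5f1 term, edgeR). The pancreatic enzyme gene Cela2a was at 6.18, 14.6, 5.85, 8.98 and 2.93 CPM on the high side and 0.244, 0.665, 0.708, 0.446 and 1.02 CPM on the low side (log2 fold change 3.93, SE 0.56, adjusted p = 0.00634, edgeR). It was 1 of 2 tested among 15 acinar markers, and 5 of those 15 were at 0 in all 10 libraries.

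Several of the largest differences were picked by size over all genes. Chrna4, which encodes a subunit of the nicotinic acetylcholine receptor, was at 0.0883, 0, 0.212, 0 and 0 CPM on the high side and 36.9, 243, 27.9, 128 and 19.7 CPM on the low side (adjusted p = 0.00216, edgeR). The high libraries hold at most 3 counts of it, so no fold is given, and libraries 6 and 5 between the sides were at 0.259 and 1.14 CPM. Map3k13, a kinase of the JNK pathway, was at 0.53, 0.483, 1.06, 0.269 and 0.404 CPM on the high side and 11, 7.76, 11.7, 13.3 and 22.1 CPM on the low side (log2 fold change -4.35, SE 0.43, adjusted p = 0.00114, edgeR) and kept its call in each fit without 1 library. Sned1, an extracellular matrix protein, was at 1.65, 0.58, 1.16, 1.71 and 1.41 CPM on the high side and 28.3, 33.9, 106, 11.1 and 13.8 CPM on the low side (log2 fold change -4.66, SE 0.66, adjusted p = 0.00634, edgeR). Car3, a carbonic anhydrase abundant in male liver and in adipocytes, was at 4.15, 2.9, 14.6, 9.16 and 69.3 CPM on the high side and 1288, 1142, 1102, 1341 and 580.5 CPM on the low side (log2 fold change -5.23, SE 1.02, adjusted p = 0.0136, edgeR). Slc37a2, a sugar-phosphate exchanger, was at 0.177, 0.0965, 1.27, 0.18 and 1.31 CPM on the high side and 19.9, 33.1, 55.6, 2.14 and 3.73 CPM on the low side (log2 fold change -4.96, SE 1.05, adjusted p = 0.0164, edgeR). Libraries 6 and 5 between the sides reached 530.1 and 337 CPM, the highest of all livers.

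Other fixed lists gave scattered calls, where 5.87% of all genes were higher and 5.4% lower (1.89% and 7.86% at totals scaling). Of 22 coagulation genes 4 were higher and 0 lower, with a median log2 fold change of 0.25 that turned to -0.20 at totals scaling. Of 25 cholesterol genes 2 were lower (9 at totals scaling). Of 27 interferon-stimulated genes 0 were called by edgeR (4 lower at totals scaling, 3 lower by DESeq2, and 5 lower at an unadjusted p under 0.05). DESeq2 called 1466 of all 16565 genes lower. Clock genes had 2 lower of 18, Nr1d1 (log2 fold change -2.08, SE 0.60, adjusted p = 0.0467, up to 0.113 without 1 of libraries 12, 8, 10, 11, 14, 15, 4 and 3, 0.058 with a Pou5f1 term, edgeR) and Per3 (log2 fold change -3.13, SE 0.92, adjusted p = 0.0483, up to 0.112 without 1 of libraries 12, 8, 10, 11, 14, 15, 4 and 3, 0.0501 with a Pou5f1 term, edgeR), both repressors of the molecular clock. Collection time is not given in the labels used here.

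Library 1, without Y-linked counts, stood apart in female-biased genes. Of 13 tested female-biased genes 2 were lower, where 5.4% of all genes were lower. The list level was 1.44 to 1.9 on the high side and up to 6.49 on the low side, a value of library 1. Cyp2c40 was at 2.87, 0.501, 2.49, 2.72 and 8.07 CPM on the high side and 10.5, 5.29, 20.8, 59.3 and 304 CPM on the low side (log2 fold change -4.11, SE 1.14, adjusted p = 0.0403, up to 0.0941 without 1 of libraries 12, 8, 10, 11, 14, 3 and 1, 0.053 with a Pou5f1 term, 0.0891 with a Y-linked term, edgeR). Of 24 male-biased genes 0 were called by edgeR, with 0 higher and 2 lower at an unadjusted p under 0.05. DESeq2 called 1 of them lower, where it called 1466 of all 16565 genes lower. Mup20, a major urinary protein, was at 1645, 20238, 1639.6, 1519 and 10772 CPM on the high side and 5257, 4466, 3664, 1466 and 70.2 CPM on the low side (log2 fold change 1.83, SE 1.13, adjusted p = 0.293, edgeR). With the Y-linked term, 502 genes were higher and 582 lower.

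Because Pou5f1 and the split overlap in part, the contrast was repeated within libraries of like Pou5f1. Among libraries under 1 CPM, 2 high ones (8 and 7) stood against 4 low ones (14, 15, 3 and 1), with 1060 genes higher (7.72%) and 726 lower (5.29%) of 13731. Among libraries at 1 CPM or more, 3 high ones (12, 10 and 11) stood against library 4 alone, with 2223 higher (15%) and 2001 lower (13.5%) of 14774. The lone library is assumed to vary like the others. The contrasts share no library. For higher calls, the shares held in common, given next, were near the share of all genes called higher in the other contrast. For lower calls, they were above the share of all genes called lower in the other contrast. Both called 151 genes higher, which is 14.2% of the calls under 1 CPM and 6.79% of those at 1 CPM or more, and both called 174 lower, 24% and 8.7%. In opposite directions, 138 genes were higher under 1 CPM and lower at 1 CPM or more, and 75 were the reverse. With a term for Pou5f1 over all 10 libraries, 642 genes were higher and 817 lower.

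Values of named genes in the 2 contrasts follow. Fgl1 differed by a log2 of 4.13 under 1 CPM and 3.07 at 1 CPM or more, and Orm2 by 6.93 and 5.84. Mt1 differed by 5.42 (adjusted p = 0.0133) and 4.49 (adjusted p = 0.00819) in edgeR, and Map3k13 by -4.18 (adjusted p = 0.0131) and -4.22 (adjusted p = 0.0113). Acaa1b differed by -3.61 (adjusted p = 0.0131) and -4.52 (adjusted p = 0.00388), Abcc2 by -1.84 (adjusted p = 0.0188) and -2.63 (adjusted p = 0.0113), and Fasn by -3.69 (adjusted p = 0.035) and -2.19 (adjusted p = 0.0261), again in edgeR. Other lower genes named above were not called under 1 CPM in edgeR. Among them were Scd1 (-4.7, adjusted p = 0.0749), Car3 (-4.19, adjusted p = 0.0537), Slc37a2 (-3.66, adjusted p = 0.114) and Ppara (-1.82, adjusted p = 0.116). Of the 118 named genes, 45 lost their call under 1 CPM and 65 kept direction and side of the threshold. A further 6 changed sign and 2 gained a call. At 1 CPM or more, the split and what is particular to library 4 cannot be told apart. Osmr differed by 0.91 (adjusted p = 0.146) and 2.86 (adjusted p = 0.00474), Psat1 by -2.27 (adjusted p = 0.193) and 7.29 (adjusted p = 0.00531), and the pericentral enzyme gene Cyp2e1 by 1.44 (adjusted p = 0.0631) and -1.82 (adjusted p = 0.028) in edgeR. The difference between the contrasts was itself not tested.

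List medians show the same arrangement. The acute phase list, Saa1 and Saa2 included, had a median log2 difference of 2.46 under 1 CPM and 3.03 at 1 CPM or more. Fatty acid synthesis had -2.03 and -1.52. Negative acute phase proteins had 1.11 and -1.10, so their members stood higher on the high side in one contrast and lower in the other. Endoplasmic reticulum genes had 1.51 and 0.46, and complement had 1.41 and -0.01. Ribosome biogenesis had 0.09 and 0.99, the integrated stress response -0.29 and 1.49, and bile acid genes -0.25 and -2.09. Over all genes tested in the 10 libraries the medians were -0.12 and 0.05.

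**Figure D5:**
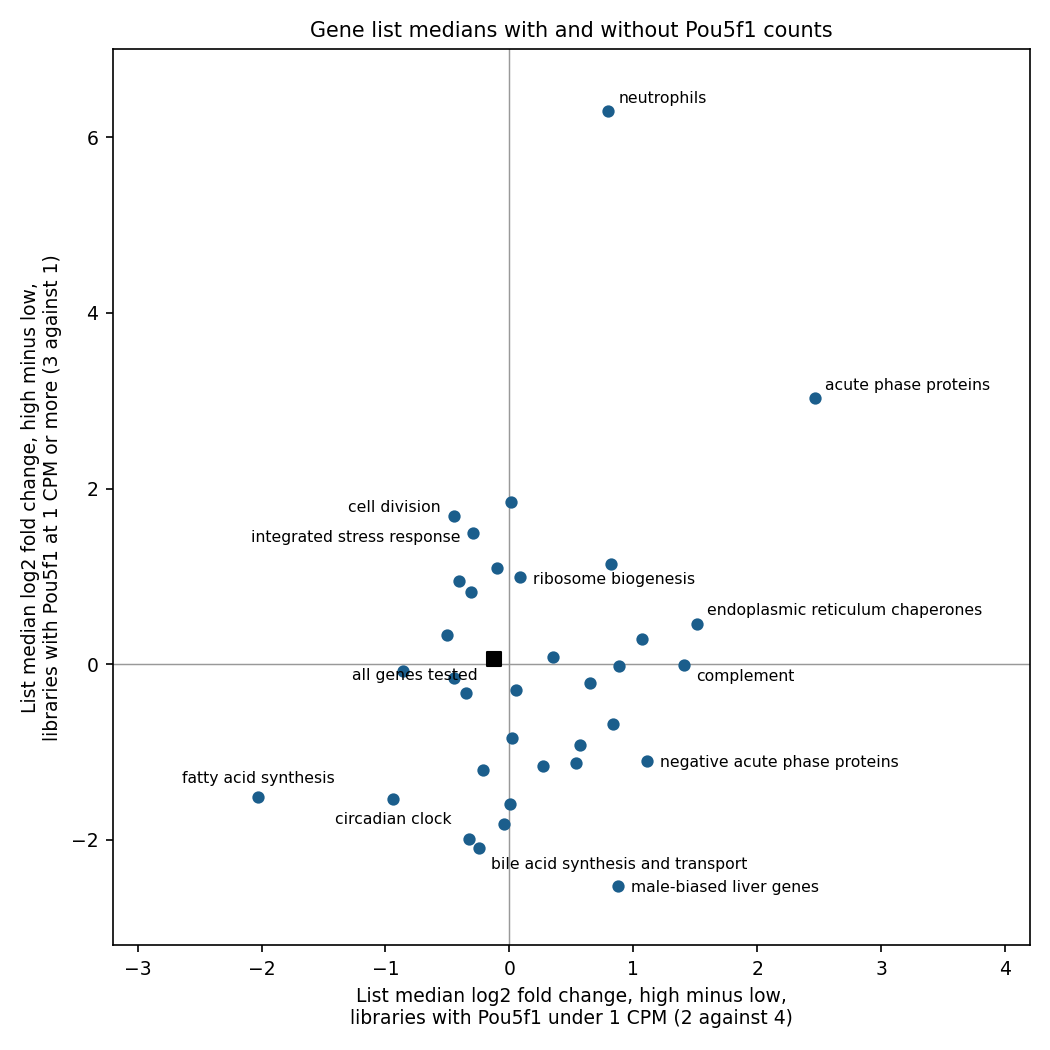
Median log2 fold change (high side minus low side) of each gene list with 10 or more tested members, among libraries with Pou5f1 under 1 CPM on the x axis (2 against 4) and at 1 CPM or more on the y axis (3 against 1); circles are lists and the square is all genes tested. The acute phase list, Saa1 and Saa2 included, is high on both axes (2.46 and 3.03). Fatty acid synthesis is low on both (-2.03 and -1.52), while ribosome biogenesis and bile acid genes lie off 0 mainly on the y axis.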

How the data were processed

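RNA of 96 mouse libraries from 7 tissues was profiled by sequencing, and the 15 liver libraries were used here. The values analysed are the estimated counts per gene that the authors deposited, with no normalization; 26.1% of the values above 0 in liver are not whole. Per the submitters' processing notes the genome build was GRCm39 and DESeq2 was used. Aligner, counter and strand setting were not given in the sources used here. The 81 columns of other tissues were not used. Rows without a gene name (310, at most 0.113% of a library) were kept in library sizes and, where they passed the filter on low counts, in the tests.

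Estimated counts were rounded and fitted with edgeR 4.0.16 in R 4.3.3 (filterByExpr, TMM scaling, glmQLFTest), 5 libraries against 5, with Benjamini-Hochberg adjustment over 12828 genes and a threshold of 0.05. The SE is the log2 fold change divided by the square root of F. CPM are counts over library totals. DESeq2 1.42.0 was an alternative, and the fit was tested on simulated data. None of 105 pairs of livers held identical values.

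Genes were named by a rule: Saa1, Saa2, Lcn2 and the 4 reprogramming factors; the 15 with the largest change in each direction among called genes with a mean of 5 CPM or more and sides that did not overlap; and from each gene list up to 3 called members in each direction with the largest mean CPM, or 2 members where none was called. Ddit3 was left out of its list because 2 rows carry that name. The members and lists were chosen with earlier results of these data known. Scaling by library totals and the fit of libraries with Pou5f1 at 1 CPM or more were chosen after seeing the data. Promoters were read from RefSeq (GRCm38.p6), and no coordinates of GRCm39 are given. One called member of the hepatocyte transcription factor list is not reported here.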

Additional observations from a re-analysis of the deposited data

Results flagged for a closer look

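Within each side, 108 groups of values were examined for a library that stands far from the other 4, and 17 were found; chance gives about 1 in 20 groups. On the low side library 4 stood apart in each reprogramming factor, with 198.7 CPM of Pou5f1, 200.5 CPM of Sox2, 341.4 CPM of Klf4 and 424.2 CPM of Myc. The mean log2(CPM + 1) level of the 4 factors accordingly reached 8.112 in 1 low library. Library 1 stood apart with 0 CPM of summed Y-linked genes, and the level of the Y-linked and X-inactivation list fell to 1.735. One low library each stood apart with 16.02 CPM of Lcn2, a cell division level of 2.873 and a lymphocyte level of 3.464.

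On the high side library 12 stood apart with 3490 CPM of Lcn2, and library 7 with a mitochondrially encoded share of 9.36%. The acute phase level reached 9.988 in 1 library with Saa1 and Saa2, and 9.705 in library 12 without them. Single high libraries also stood apart with a fatty acid oxidation level of 6.967, a cholangiocyte level of 4.396 and a lowest female-biased level of 1.44.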

How the results depend on the processing

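The main counts were 753 genes higher and 693 lower. They were 1602 and 1466 by DESeq2, 435 and 435 with all 15 libraries in 3 groups, and 113 and 207 when the sides were set by the other acute phase genes. They were 242 and 1008 at library totals, and 2223 and 2001 among libraries with Pou5f1 at 1 CPM or more. Leaving out 1 library gave 189 to 1151 higher and 298 to 1152 lower. Of 118 named genes, 16 changed sign in at least 1 alternative, and 22 kept both direction and side of the threshold in every alternative run. With sides set by the other acute phase genes, 57 lost their call, Mt1, Mt2 and Scd1 among them. In that setting 56 kept direction and side of the threshold and 2 changed sign. Log2 fold changes with a changed sign follow by setting. Among libraries with Pou5f1 at 1 CPM or more they were -1.39 for Klf4, -1.82 for Cyp2e1, -1.19 for Mup20, -0.36 for Iigp1, 1.12 for Ccnd1, 1.34 for Hbb-bs, -0.19 for Itga2b and -0.18 for Eif2s3y. Among those under 1 CPM they were -1.03 for Klf4, -1.76 for Myc, -2.27 for Psat1, 0.41 for Bst2, -1.28 for Cd24a and 0.28 for Rgn. With sides of 7 they were 1.27 for Smim24, 1.96 for Slc37a2, 0.59 for Gsta1, 0.030 for Bst2, -0.11 for Itga2b and -0.11 for Eif2s3y, and with sides of 4 -0.27 for Iigp1 and -0.39 for Cyp2e1. With a term for Pou5f1 they were -0.62 for Klf4 and -0.52 for Myc, and with one for Y-linked counts -0.19 for Klf4, -0.024 for Itga2b and -0.27 for Eif2s3y. At library totals they were -0.30 for Iigp1, -0.25 for Cyp2e1 and -0.11 for Eif2s3y. With sides set by the other acute phase genes they were 0.27 for Hbb-bs and -0.29 for Eif2s3y, and with a mean of 5 CPM or more -0.0017 for Eif2s3y. Leaving out 1 library gave -0.35 to 4.33 for Klf4, -0.34 to 0.49 for Iigp1, -0.42 to 0.56 for Cyp2e1, -0.023 to 0.53 for Itga2b and -0.28 to 0.26 for Eif2s3y. The cause of these changes was not tested. No paired analysis was possible because the columns carry no replicate number from the labels. Depth was 8211684 to 14176807 counts per library, which limits genes near 0 such as Chrna4 and Pnpla3.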
